A study of Homo sapiens with 12 samples.

Results

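The cohesin, condensin, securin and separase genes were taken from the FPKM table (fragments per kilobase of transcript and library size, a level scaled to transcript length) as the rows named SMC1A, SMC3 and RAD21 (cohesin), SMC2, SMC4, NCAPD2, NCAPG and NCAPH (condensin), ESPL1 (separase) and PTTG1 (securin). They were 10 of the 60671 genes listed, and all 10 were among the 11591 genes tested, whose FPKM averaged 1 or more over the 12 libraries. The cells were labelled Jurkat, a human line from a T cell acute lymphoblastic leukemia. They carried either the lentiviral control vector pHIV7-SFFV-GFP (NC) or a vector built from it with FLAG-tagged PTPN21, a protein tyrosine phosphatase, under the SFFV viral promoter. They received vincristine (VCR), a drug that blocks microtubule assembly, or its solvent DMSO for 48 h. The titles of the libraries without VCR, NC and OE, name no solvent, and the paper's RNA sequencing methods describe only VCR-treated cells. The vector cells made up the groups NC+DMSO and NC+VCR and the PTPN21 cells the groups PTPN21+DMSO and PTPN21+VCR, with 3 libraries in each of the 4. The dose of VCR in these libraries and whether the vector cells were 1 clone or a pool were not given in the sources used here. No label says that the 3 libraries of a group came from separate cultures, so the p-values measure the spread between these libraries, which may be technical.

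Cohesin is a ring built from SMC1A, SMC3 and the kleisin RAD21 that holds sister chromatids together after replication and shapes chromatin loops. Condensin, built on the SMC2 and SMC4 pair with NCAPH as its kleisin and NCAPD2 and NCAPG as its HEAT-repeat subunits, compacts chromosomes for mitosis. At anaphase the anaphase promoting complex with CDC20 tags securin for destruction, and the freed separase cuts RAD21. Microtubule poisons keep the spindle checkpoint on, which holds CDC20 back, so this set of genes belongs to the step at which such drugs stop a dividing cell.

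The promoters of 4 members are shown. They include those of PTTG1, with the highest level, and ESPL1, with the lowest. The others are those of NCAPG, a condensin subunit higher under VCR in vector cells, and SMC1A, a cohesin subunit lower in PTPN21 cells without drug. Each is the 250 bases before a RefSeq start site of GRCh38.p14, and capitals mark CCAAT, the letters of the NF-Y box (ATTGG on the other strand), and TTTGAA or TTTAAA, the core letters of the cell cycle genes homology region that is known from promoters of mitotic genes. The PTTG1 window lies at chr5:160421605-160421854 on the plus strand, that of ESPL1 at chr12:53268049-53268298 on the plus strand, that of NCAPG at chr4:17810729-17810978 on the plus strand and that of SMC1A at chrX:53422729-53422978 on the minus strand.
PTTG1: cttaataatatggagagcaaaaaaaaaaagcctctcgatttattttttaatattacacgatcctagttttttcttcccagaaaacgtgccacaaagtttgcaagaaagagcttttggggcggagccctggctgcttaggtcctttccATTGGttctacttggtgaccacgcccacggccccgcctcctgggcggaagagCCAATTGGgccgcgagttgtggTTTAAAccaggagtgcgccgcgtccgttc
ESPL1: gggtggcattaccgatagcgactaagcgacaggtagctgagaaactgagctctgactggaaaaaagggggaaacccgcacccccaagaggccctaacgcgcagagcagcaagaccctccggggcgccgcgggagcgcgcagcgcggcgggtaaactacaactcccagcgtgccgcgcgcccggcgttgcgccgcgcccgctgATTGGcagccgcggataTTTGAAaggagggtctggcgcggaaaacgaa
NCAPG: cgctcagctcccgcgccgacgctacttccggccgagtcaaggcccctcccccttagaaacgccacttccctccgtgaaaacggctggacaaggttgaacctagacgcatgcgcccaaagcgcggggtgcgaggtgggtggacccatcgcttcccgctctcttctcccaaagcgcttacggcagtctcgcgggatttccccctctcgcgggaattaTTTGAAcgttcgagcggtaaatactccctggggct
SMC1A: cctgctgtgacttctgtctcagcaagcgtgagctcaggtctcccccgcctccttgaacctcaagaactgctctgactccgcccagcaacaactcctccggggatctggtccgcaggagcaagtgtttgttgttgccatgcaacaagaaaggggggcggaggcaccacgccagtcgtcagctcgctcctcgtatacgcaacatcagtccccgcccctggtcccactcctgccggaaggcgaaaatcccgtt

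In PTTG1 the letters CCAAT and ATTGG overlapped each other 51 and 48 bases before the start, and TTTAAA followed at 29 bases. In ESPL1 ATTGG stood 48 bases and TTTGAA 31 bases before the start. NCAPG held TTTGAA at 35 bases and no CCAAT, and SMC1A held neither. RefSeq windows of 300 bases (250 before to 50 after a start) were given for 9 of the 10 members, with 13 windows in all. Over these, 8 members held TTTGAA or TTTAAA on either strand, 4 held CCAAT, and 3 held CCAAT at most 60 bases ahead of TTTGAA or TTTAAA. Of all 35116 windows of that length, 24.0% held TTTGAA or TTTAAA, 34.6% held CCAAT and 2.67% held the ordered pair. A member with several starts had more windows in which to hold a motif, so the shares per gene and per window are given side by side without a test, and a match of letters does not show a bound site.

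The labels were checked first. PTPN21 itself was at 0.0212 to 0.0934 FPKM in NC+DMSO and 0.160 to 0.569 in NC+VCR, against 7.93 to 10.5 in PTPN21+DMSO and 4.34 to 6.53 in PTPN21+VCR. Of 12 T cell markers, 2 had a mean FPKM of at least 1 (CD3D and TRBC1), and 4, LCK, CD247, CD28 and CD5, were listed at 0 in all 12 libraries. The summed level of the T cell list was 64.5 to 97.7 FPKM in NC+DMSO, 120 to 146 in PTPN21+DMSO, 108 to 136 in NC+VCR and 108 to 112 in PTPN21+VCR, nearly all of it CD3D (61.8 to 139.7). A list of 9 B cell markers summed to at most 1.84 FPKM in any library, with VPREB1, MS4A1 and BLNK listed at 0 throughout. A list of 6 embryonic kidney or epithelial markers, 4 of them with a mean of at least 1 and with PAX2 at 0, summed to 605 to 802 FPKM in NC+DMSO, 758 to 853 in PTPN21+DMSO, 1695 to 1797 in NC+VCR and 1678 to 2218 in PTPN21+VCR, led by KRT8, KRT19, KRT18 and EPCAM. The fetal globin gene HBG2, looked at after the values were seen, stood at 560 to 2985 FPKM and the erythroid factor GATA1 at 13.5 to 106.5. The defining markers thus went against the label Jurkat in all 4 groups, no other name is given to the cells, and the part of this in the results below was not tested. By the steps between low values, the NC libraries held an estimated 28700000 to 35900000 fragments and the PTPN21 libraries 20600000 to 24000000, or 14350000 to 17950000 and 10300000 to 12000000 if 1 step is 2 fragments. Libraries of a group correlated across genes (Pearson's r of log2 values) at 0.939 to 0.962 in NC+DMSO and 0.942 to 0.951 in NC+VCR. The values were 0.967 to 0.976 in PTPN21+DMSO and 0.970 to 0.972 in PTPN21+VCR. The fit used 1 estimate of the spread per gene for all 4 groups.

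PTTG1 stood far above its partner and above every subunit gene. Its mean over the 12 libraries was 383 FPKM, rank 201 of 11591 genes, followed by RAD21 (99.995 FPKM), SMC4 (83.5 FPKM), SMC1A (43.2 FPKM), NCAPD2 (42.1 FPKM), NCAPH (41.8 FPKM), NCAPG (39.0 FPKM), SMC3 (38.7 FPKM), SMC2 (17.9 FPKM) and ESPL1 (1.22 FPKM, rank 11021). In this order RAD21 and SMC4 overlapped in their ranges over the libraries (35.8 to 150 and 62.6 to 143 FPKM), and the 5 genes from SMC1A to SMC3 lay within each other's spread. PTTG1 (160 to 578 FPKM) and ESPL1 (0.595 to 2.19 FPKM) overlapped with no other member in any library. The 2 members that varied most were RAD21 and PTTG1, with an SD of log2(FPKM + 1) over the 12 libraries of 0.62 and 0.57, and NCAPG varied least with 0.20.

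**Figure D1:**
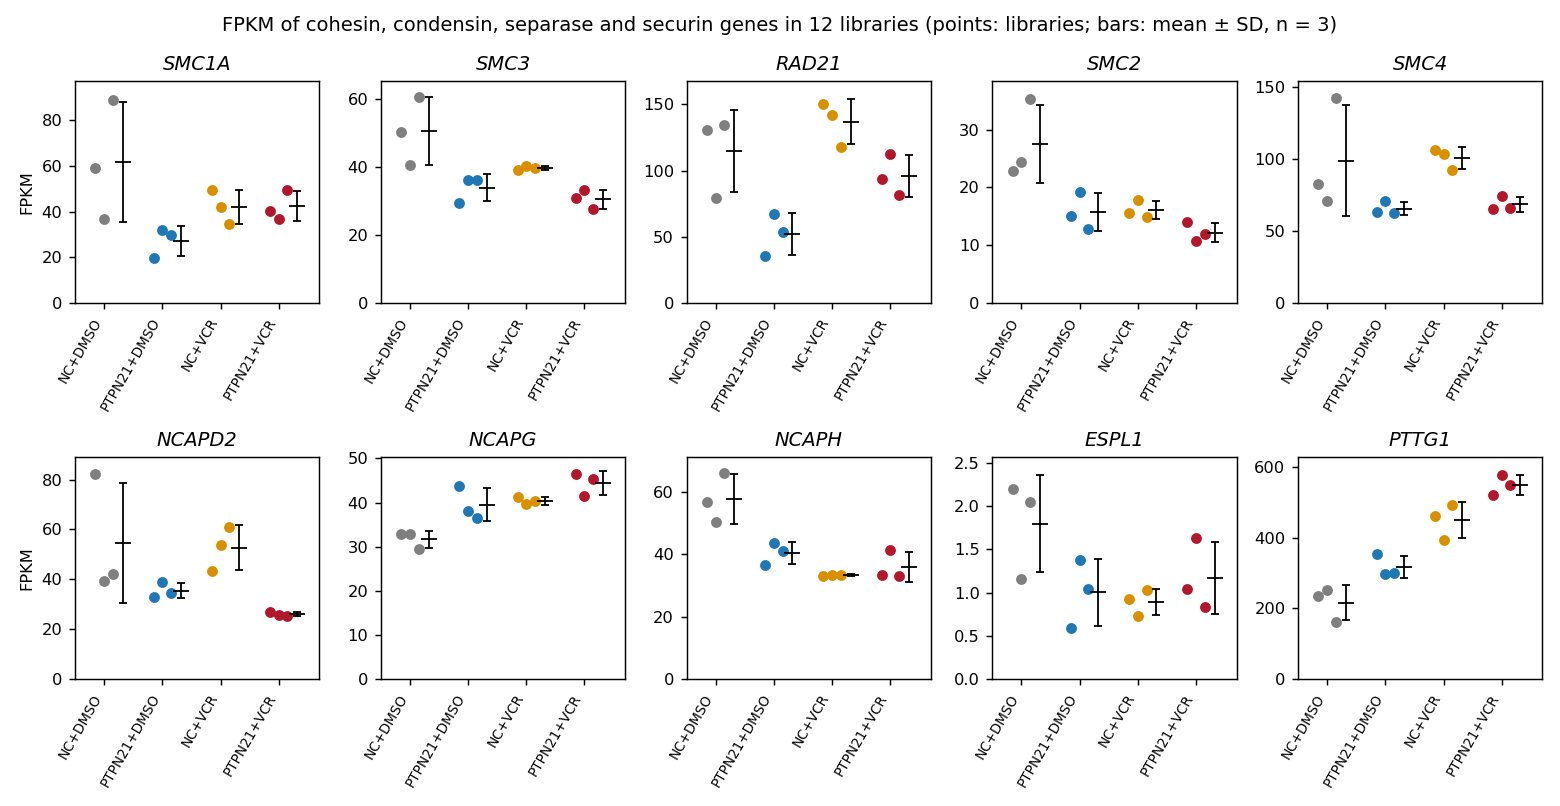
FPKM (linear axes from 0) of each member in each of the 12 libraries by group, with the mean ± SD of 3 libraries as black bars. PTTG1 climbs from 160 to 253 in NC+DMSO to 520 to 578 in PTPN21+VCR, while NCAPH is at 50.3 to 66.1 in NC+DMSO and at 32.9 to 43.4 in the other groups.

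Among the cohesin genes, SMC1A, an ATPase arm of the ring, was at 58.8, 36.7 and 88.8 FPKM in NC+DMSO, 19.5, 32.03 and 29.7 in PTPN21+DMSO, 49.5, 42.1 and 34.7 in NC+VCR, and 40.4, 36.9 and 49.6 in PTPN21+VCR. PTPN21+DMSO was the low group, with every library below those of the other 3 groups, and NC+DMSO spread the most (61.4 ± 26.2, SD, n = 3). SMC3, the other ATPase arm, was at 50.4, 40.7 and 60.5 FPKM in NC+DMSO, 29.4, 36.1 and 36.3 in PTPN21+DMSO, 39.3, 40.4 and 39.7 in NC+VCR, and 31.1, 33.2 and 27.6 in PTPN21+VCR. Its NC libraries lay above its PTPN21 libraries within each treatment. RAD21, the subunit that separase cuts, was at 131, 79.1 and 134 FPKM in NC+DMSO, 35.8, 67.4 and 53.7 in PTPN21+DMSO, 150, 142 and 118 in NC+VCR, and 93.8, 113 and 81.6 in PTPN21+VCR. The PTPN21+DMSO libraries were below all others, and the NC+DMSO and NC+VCR libraries overlapped.

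Among the condensin genes, SMC2 was at 22.9, 24.4 and 35.3 FPKM in NC+DMSO, 15.005, 19.3 and 12.8 in PTPN21+DMSO, 15.5, 17.9 and 14.97 in NC+VCR, and 14.0, 10.7 and 11.9 in PTPN21+VCR. NC+DMSO was high, with no overlap with any other group. Its partner SMC4 was at 82.9, 71.0 and 143 FPKM in NC+DMSO, 63.3, 70.8 and 62.6 in PTPN21+DMSO, 107, 104 and 92.4 in NC+VCR, and 65.2, 74.6 and 66.0 in PTPN21+VCR. The PTPN21 libraries stayed in a band of 62.6 to 74.6 with either treatment, and NC+DMSO replicate 3 stood well above the others. NCAPD2, a HEAT-repeat subunit, was at 82.1, 39.2 and 42.3 FPKM in NC+DMSO, 32.8, 38.8 and 34.6 in PTPN21+DMSO, 43.1, 53.6 and 61.0 in NC+VCR, and 26.9, 25.5 and 25.4 in PTPN21+VCR. The PTPN21+VCR libraries were the 3 lowest of the 12, and the NC+DMSO mean (54.5 ± 23.9) rested on replicate 1.

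NCAPG, the other HEAT-repeat subunit, was at 32.8, 32.9 and 29.5 FPKM in NC+DMSO, 43.8, 38.2 and 36.6 in PTPN21+DMSO, 41.2, 39.6 and 40.3 in NC+VCR, and 46.5, 41.4 and 45.4 in PTPN21+VCR. NC+DMSO was the low group here, below every library of the other groups. NCAPH, the kleisin that NCAPG binds, was at 56.8, 50.3 and 66.1 FPKM in NC+DMSO, 36.7, 43.4 and 41.0 in PTPN21+DMSO, 32.9, 33.4 and 33.4 in NC+VCR, and 33.4, 41.4 and 33.0 in PTPN21+VCR. Here NC+DMSO was the high group, above every library of the other groups.

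ESPL1, the protease that cuts RAD21, was at 2.19, 1.15 and 2.05 FPKM in NC+DMSO, 0.595, 1.37 and 1.042 in PTPN21+DMSO, 0.926, 0.727 and 1.03 in NC+VCR, and 1.037, 1.63 and 0.834 in PTPN21+VCR. At this level 1 FPKM of pseudocount is as large as the value, so its fold changes understate the change. PTTG1, its inhibitor, was at 236, 253 and 160 FPKM in NC+DMSO, 354, 296 and 301 in PTPN21+DMSO, 462, 393 and 492 in NC+VCR, and 520, 578 and 550 in PTPN21+VCR. The 4 groups followed each other in that order with no overlap between any pair of them.

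The first comparison asked how these genes responded to VCR in vector cells. PTTG1 rose in NC+VCR over NC+DMSO (449 ± 50.8 vs. 216 ± 49.3 FPKM, mean ± SD, n = 3 each) by 1.07 ± 0.16 (SE) on the log2(FPKM + 1) scale, 2.10-fold (limma, adjusted p = 0.000422). NCAPG rose by 0.34 ± 0.12 (40.4 ± 0.795 vs. 31.7 ± 1.94 FPKM, adjusted p = 0.0375). NCAPH fell by 0.77 ± 0.14 (33.3 ± 0.299 vs. 57.7 ± 7.94 FPKM, adjusted p = 0.00137), and SMC2 fell by 0.72 ± 0.20 (16.1 ± 1.56 vs. 27.6 ± 6.76 FPKM, adjusted p = 0.0149). Within condensin, 1 of 5 subunit genes rose, 2 fell and 2 did not pass. In bulk RNA, fewer cells in a cell cycle phase and less RNA per cell cannot be told apart.

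The other members did not pass the test in this comparison. ESPL1 had a log2 difference of -0.55 ± 0.24 (limma adjusted p = 0.0962) and SMC3 one of -0.32 ± 0.15 (adjusted p = 0.121), both with all NC+VCR libraries below all NC+DMSO libraries. SMC1A (-0.46, 95% interval -1.07 to 0.15), RAD21 (0.29, -0.25 to 0.82), SMC4 (0.09, -0.35 to 0.53) and NCAPD2 (0.02, -0.49 to 0.52) overlapped between the groups, and their intervals still allow sizeable changes. In all, 2 members rose and 2 fell. Of all genes tested, 36.2% were called in this comparison, 7.91% higher and 28.3% lower, so the share of 4 in 10 members is close to the background. By non-overlap, 2 members were higher and 4 lower in NC+VCR, where 10.2% and 33.9% of all genes were. The median log2 difference was -0.15 over the members and -0.36 over all genes, and relative to the latter PTTG1 stood at 1.43, NCAPG at 0.70, RAD21 at 0.65, SMC2 at -0.35 and NCAPH at -0.41.

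That shift of all genes depended on the scaling. With median ratio scaling between libraries the median of all genes was -0.04 in place of -0.36, and the calls over all genes were 1717 higher and 1361 lower in place of 917 and 3275. PTTG1, NCAPG and NCAPH stayed called in the same direction under that scaling, SMC2 did not pass (-0.34, limma adjusted p = 0.193) and RAD21 did (0.67, adjusted p = 0.0390). SMC2 was also not called with quantile normalization (-0.44, limma adjusted p = 0.115), with length and GC trends removed from each library, an alternative chosen after seeing the data (-0.44, adjusted p = 0.0838), or without NC+DMSO replicate 3 (-0.53, adjusted p = 0.0603). NCAPG was past the threshold in 9 of the 21 other settings tried. It lost its call with TPM scaling (0.24, adjusted p = 0.111), without the intensity trend (adjusted p = 0.0693), with only the groups compared (adjusted p = 0.114) and in 8 of the 12 fits that each left out 1 library, with log2 differences of 0.29 to 0.37 over the 12. Leaving out NC+DMSO replicate 2 gave 7 called members, adding lower calls of SMC1A, SMC3 and ESPL1, and leaving out NC+DMSO replicate 3 added a higher call of SMC4 (0.39, adjusted p = 0.0392).

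In PTPN21 cells, VCR was followed by a rise of PTTG1 and of RAD21. PTTG1 rose from 317 ± 32.03 to 549 ± 28.8 FPKM, by 0.80 ± 0.16 on the log2 scale (limma adjusted p = 0.00314). RAD21 rose from 52.3 ± 15.9 to 96.0 ± 15.6 FPKM, by 0.90 ± 0.24 (adjusted p = 0.0168), and in all 3 PTPN21+VCR libraries it was above the PTPN21+DMSO libraries. SMC1A had a log2 difference of 0.64 ± 0.28 with no overlap (adjusted p = 0.109), and NCAPD2 one of -0.43 ± 0.23, also with no overlap (adjusted p = 0.190). The other 6 members overlapped between the groups, with log2 differences from -0.33 (SMC2) to 0.17 (NCAPG).

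The 2 called members, both higher, compare with 9.22% of all genes called higher and 19.3% called lower (28.5% called in all). By non-overlap 3 members were higher and 1 lower, where 17% and 33.3% of all genes were. The median of the members was 0.09 and that of all genes -0.17. RAD21 lost its call without PTPN21+DMSO replicate 1 (0.65, limma adjusted p = 0.0699), its lowest library, and without PTPN21+VCR replicate 2 (0.78, adjusted p = 0.0682), its highest library in that group. With median ratio scaling, which gave 1584 higher and 1449 lower calls over all genes in place of 1069 and 2239, RAD21 kept its call (1.09) and SMC1A gained one (0.83, adjusted p = 0.0329).

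**Figure D2:**
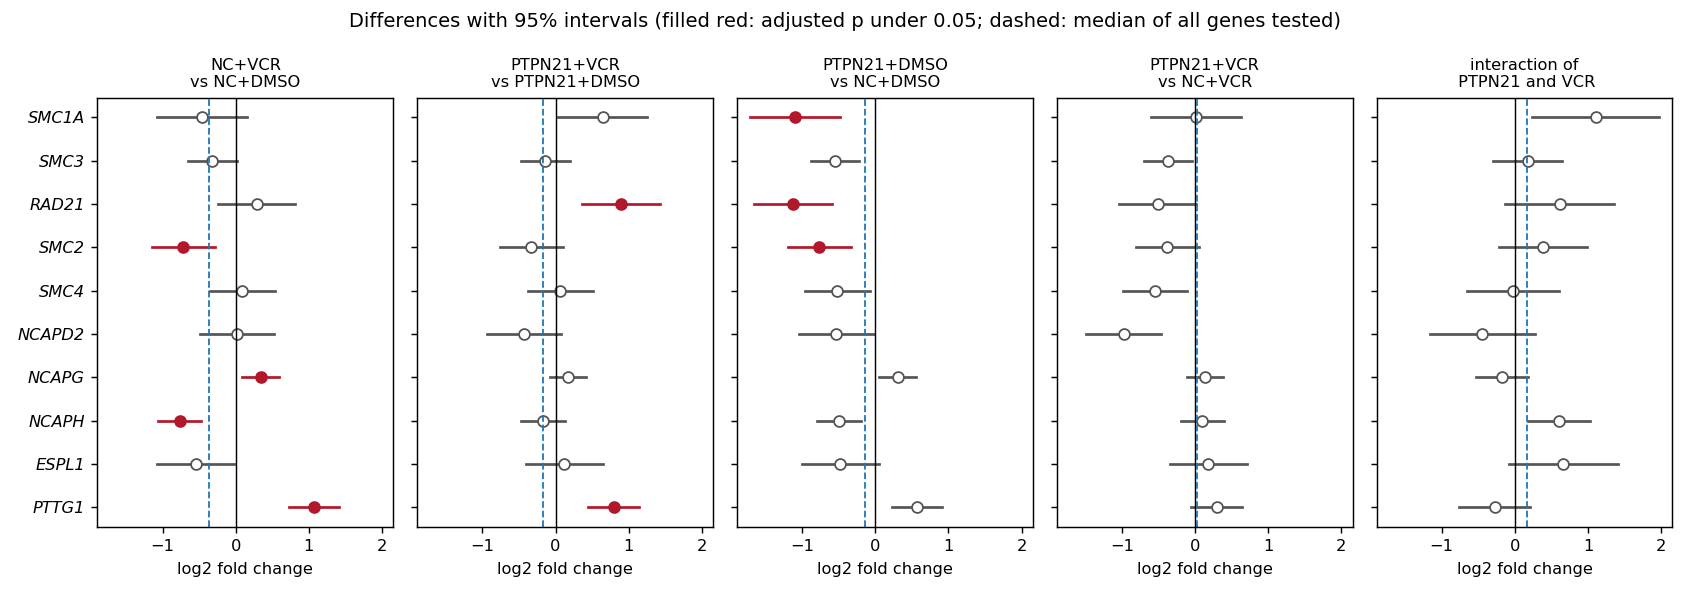
Log2 fold change on the log2(FPKM + 1) scale of each member in the 5 comparisons, with 95% intervals, filled red where the limma adjusted p was under 0.05, and the median of all genes tested as a dashed line. PTTG1 is called in both VCR comparisons, SMC1A, RAD21 and SMC2 are called lower in PTPN21+DMSO, and no member is called in the 2 panels on the right.

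Without drug, 2 of the 3 cohesin genes and 1 of the 5 condensin genes were lower in PTPN21 cells. RAD21 fell by 1.13 ± 0.24 on the log2 scale (52.3 ± 15.9 vs. 115 ± 30.9 FPKM, limma adjusted p = 0.0256), SMC1A fell by 1.09 ± 0.28 (27.1 ± 6.65 vs. 61.4 ± 26.2 FPKM, adjusted p = 0.0421) and SMC2 of condensin fell by 0.77 ± 0.20 (15.7 ± 3.28 vs. 27.6 ± 6.76 FPKM, adjusted p = 0.0421). SMC3, which completes the ring, had a log2 difference of -0.55 ± 0.15 just outside the threshold (adjusted p = 0.0531). The same held for NCAPH (-0.50 ± 0.14, adjusted p = 0.0505) and, in the other direction, for PTTG1 (0.57 ± 0.16, adjusted p = 0.0529).

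SMC4 (-0.52, limma adjusted p = 0.134), NCAPD2 (-0.53, adjusted p = 0.177), NCAPG (0.31, adjusted p = 0.124) and ESPL1 (-0.48, adjusted p = 0.235) were further from it. Thus 3 members were called lower and none higher, where 3.69% of all genes were called lower and 2.65% higher (6.34% in all). The groups did not overlap for 9 of the 10 members, 7 lower and 2 higher (NCAPG and PTTG1) in PTPN21+DMSO, where 33.4% of all genes did not overlap, 21.9% lower and 11.5% higher. The median was -0.53 over the members and -0.14 over all genes.

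The 3 calls rested on few libraries. No member was called without NC+DMSO replicate 1, NC+DMSO replicate 3, PTPN21+DMSO replicate 1 or PTPN21+DMSO replicate 3, each left out alone, and 7 were called without NC+DMSO replicate 2 (SMC1A, SMC3, RAD21, SMC2, SMC4 and NCAPH lower, PTTG1 higher). Leaving out PTPN21+VCR replicate 1, 2 or 3, which are not in the comparison but share its estimate of the spread, left 1 call, RAD21. The log2 difference of RAD21 stayed between -1.37 and -0.88 over the fits that left out 1 library, that of SMC1A between -1.41 and -0.79 and that of SMC2 between -0.91 and -0.58. With median ratio scaling the calls over all genes were 422 higher and 151 lower in place of 307 and 428. RAD21 stayed called lower under it (-0.94, limma adjusted p = 0.0340), SMC1A (-0.91, adjusted p = 0.0626) and SMC2 (-0.58, adjusted p = 0.0846) did not pass, and PTTG1 was called higher (0.76, adjusted p = 0.0447).

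Transcript length moved with this comparison across all genes. The median log2 difference of PTPN21+DMSO to NC+DMSO was 0.18 in genes whose longest transcript had up to 1000 bases, -0.06 at 2001 to 3000 bases, -0.32 at 4001 to 6000 bases and -0.38 over 6000 bases. The members ranged from PTTG1 with 1070 bases to SMC1A with 9930 bases, with RAD21 at 3749 and SMC2 at 5992. NCAPG (4661 bases) and PTTG1 lay above the median of their length class, and SMC1A, SMC3, RAD21, SMC2, SMC4, NCAPD2, NCAPH and ESPL1 lay below theirs. With length and GC trends removed RAD21 stayed called (-0.84, limma adjusted p = 0.0374), SMC1A (-0.74, adjusted p = 0.0997) and SMC2 (-0.38, adjusted p = 0.254) did not, and NCAPG was called higher (0.66, adjusted p = 0.0447).

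**Figure D3:**
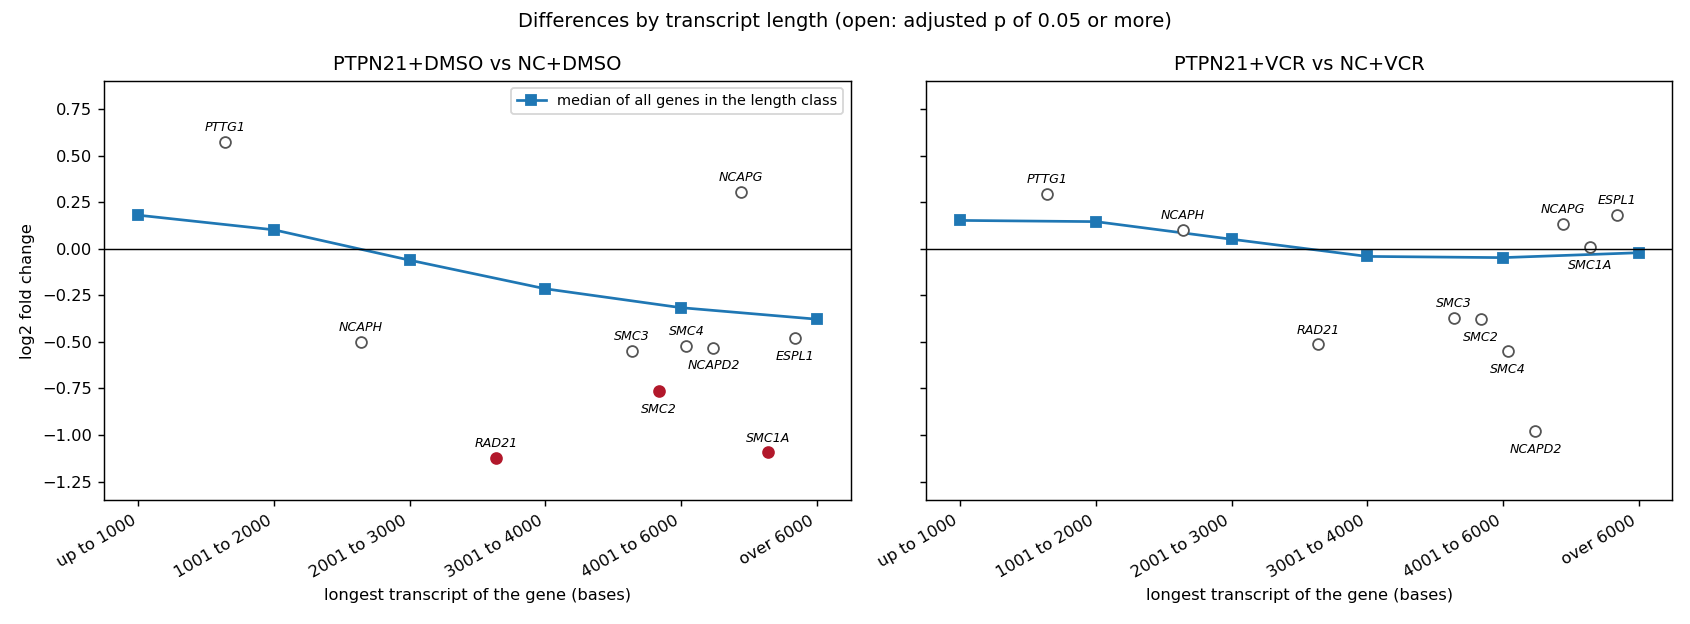
Log2 fold change of each member (circles, spread sideways within a class, filled red where called) and the median of all genes (blue squares) by length class of the longest transcript in bases, for PTPN21 against NC cells without and with VCR. The median of all genes runs from 0.18 to -0.38 in the left panel and from 0.15 to -0.02 in the right panel.

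Under VCR, PTPN21 and vector cells were compared at equal treatment, and no member passed the test. NCAPD2 came nearest, with 25.9 ± 0.811 FPKM in PTPN21+VCR and 52.6 ± 8.99 in NC+VCR, a log2 difference of -0.98 ± 0.23 (limma adjusted p = 0.0566) with no overlap. It was past the threshold in 6 of the 21 other settings tried, 3 of them fits that left out an NC+DMSO library (adjusted p = 0.00966 to 0.0464). SMC4 had a log2 difference of -0.55 ± 0.20 (adjusted p = 0.187), RAD21 of -0.51 ± 0.24 (adjusted p = 0.309), SMC2 of -0.38 ± 0.20 (adjusted p = 0.359) and SMC3 of -0.37 ± 0.15 (adjusted p = 0.241), each with all PTPN21+VCR libraries below all NC+VCR libraries. SMC4 was called lower when NC+DMSO replicate 3 was left out (adjusted p = 0.0281).

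NCAPG (0.13) and PTTG1 (0.29) were higher in every PTPN21+VCR library than in any NC+VCR library, also without passing. SMC1A showed a log2 difference of 0.01 with an interval of -0.60 to 0.62. The count of 0 called by limma compares with 1.82% of all genes. An unadjusted limma p under 0.05 was found for 3 members and for 1980 of the 11591 genes tested. By non-overlap 5 members were lower and 2 higher, where 10.2% and 12.3% of all genes were. The medians were -0.18 over the members and 0.03 over all genes.

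Whether the response to VCR differed between PTPN21 and vector cells was tested by the interaction. SMC1A had the widest difference between the responses, 1.10 ± 0.40 on the log2 scale (limma adjusted p = 0.267), as it was -0.46 in vector cells and 0.64 in PTPN21 cells. ESPL1 followed with 0.66 ± 0.34 (adjusted p = 0.399), RAD21 with 0.61 ± 0.34 (adjusted p = 0.434) and NCAPH with 0.60 ± 0.19 (adjusted p = 0.223). PTTG1 showed -0.28 with an interval of -0.76 to 0.21. No member was called by limma, and 0.129% of all genes were called, 0.0259% higher and 0.104% lower. An unadjusted limma p under 0.05 was found for 2 members (SMC1A and NCAPH) and for 1624 of the 11591 genes tested. The median was 0.28 over the members and 0.17 over all genes. By length class, the median of all genes ran from -0.02 at up to 1000 bases to 0.37 over 6000 bases, the class of SMC1A and ESPL1. With length and GC trends removed, SMC1A was at 0.74, ESPL1 at 0.46, NCAPH at 0.41 and RAD21 at 0.29, again without passing. RAD21 was thus called in the VCR comparison of PTPN21 cells and not in that of vector cells, and the difference between the responses did not pass.

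Ratios of genes whose products bind each other do not depend on how a library is scaled, and are given as a description. Trends with transcript length can remain in them, as PTTG1 has 1070 bases and ESPL1, at a mean of 1.22 FPKM, has 6665. With length and GC trends removed, the log2 difference of NC+VCR to NC+DMSO went from -0.55 to 0.0467 for ESPL1 and from 1.07 to 1.27 for PTTG1. The FPKM ratio of PTTG1 to ESPL1, the inhibitor over its protease, was 108, 219 and 78.2 in NC+DMSO, 594, 216 and 289 in PTPN21+DMSO, 499, 541 and 480 in NC+VCR, and 501, 353 and 660 in PTPN21+VCR. The NC+VCR libraries lay above all NC+DMSO libraries, and the PTPN21 groups overlapped. The ratio of NCAPG to NCAPH was 0.577, 0.653 and 0.446 in NC+DMSO, 1.19, 0.879 and 0.892 in PTPN21+DMSO, 1.25, 1.18 and 1.20 in NC+VCR, and 1.39, 1.00 and 1.38 in PTPN21+VCR. NC+DMSO was below the other 3 groups in every library. The ratio of SMC3 to SMC1A, which pair 1 to 1 in the ring, was 0.857, 1.11 and 0.682 in NC+DMSO, 1.51, 1.13 and 1.22 in PTPN21+DMSO, 0.792, 0.960 and 1.14 in NC+VCR, and 0.769, 0.900 and 0.557 in PTPN21+VCR. It was higher in every PTPN21+DMSO library than in any NC+DMSO or PTPN21+VCR library, while NC+DMSO and NC+VCR overlapped.

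**Figure D4:**
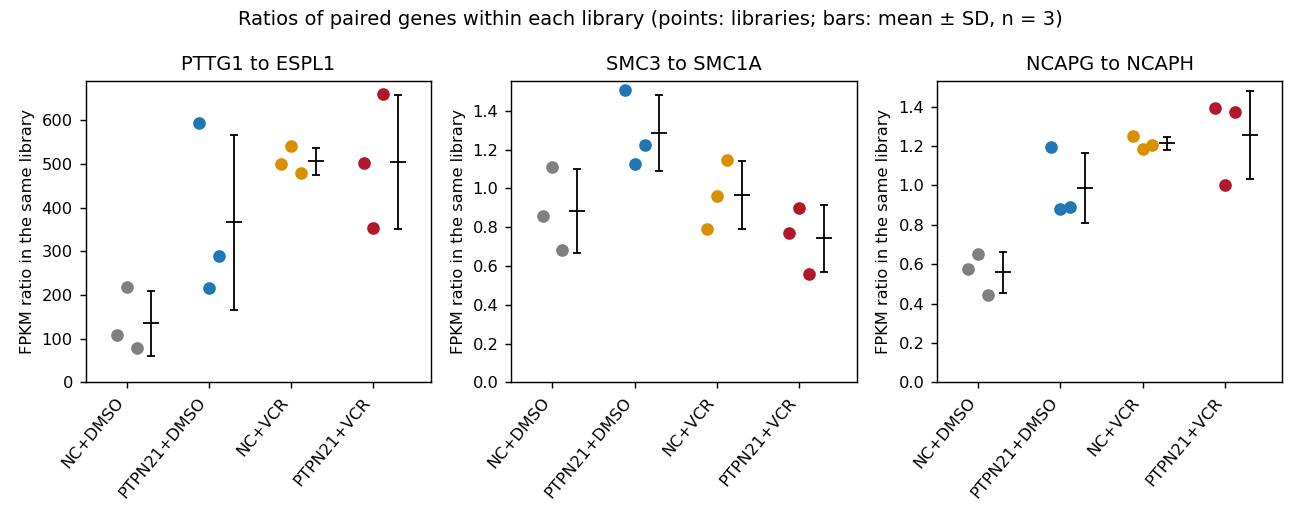
FPKM ratios of PTTG1 to ESPL1, SMC3 to SMC1A and NCAPG to NCAPH within each of the 12 libraries by group, with mean ± SD of 3 libraries as black bars. The NCAPG to NCAPH ratio is at 0.446 to 0.653 in NC+DMSO and at 0.879 or more in the other groups.

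The genes that load, lock and release cohesin were described from a list of 19, of which 15 were tested. Under VCR in vector cells none rose and 3 fell, where 28.3% of all genes were called lower, and the list median was -0.52 beside -0.36 over all genes. The count is thus no larger than the background. The fallen genes were CDCA5, or sororin, which locks cohesin on sister chromatids (-1.63, limma adjusted p = 0.0208), HASPIN, a kinase that marks centromeric histone H3 (-1.23, adjusted p = 0.00175), and SGO1, or shugoshin, which protects centromeric cohesin (-0.60). CDCA5 was at 28.7, 32.9 and 27.0 FPKM in NC+DMSO and 18.1, 2.26 and 14.2 in NC+VCR, so NC+VCR replicate 2 stood apart. In PTPN21 cells under VCR, SGO2 (0.79) and PDS5A, a regulator that binds the ring (0.68), rose and SGO1 fell by 0.45 on the log2 scale. There 9.22% of all genes were called higher and 19.3% lower, and the list median was 0.07 beside -0.17 over all genes. Without drug, STAG2, the subunit that docks on RAD21 (-1.11, adjusted p = 0.0239), and PDS5A (-0.78, adjusted p = 0.0483) were lower in PTPN21 cells. Of all genes, 3.69% were called lower and 2.65% higher there. The list median was -0.72 where that of all genes was -0.14. That of all genes was -0.32 at 4001 to 6000 bases and -0.38 over 6000 bases, and the list was not matched for length. Calls over all genes in this comparison ranged from 40 with only the groups compared to 1345 without NC+DMSO replicate 2, beside 735 in the fit reported here. How far single calls in this and the other lists held was not tested. STAG2 was at 54.2, 39.1 and 83.1 FPKM in NC+DMSO and 22.6, 28.9 and 25.3 in PTPN21+DMSO, with no overlap. WAPL, which opens the ring, passed in no comparison (-0.05, 0.07, -0.67 and -0.55 in the order of the comparisons above). Under VCR, PTPN21 against vector cells gave no call in this list.

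The 3 condensin II subunits, which pair with the same SMC2 and SMC4, were all tested. NCAPD3 fell under VCR in vector cells (-0.56, limma adjusted p = 0.0127), NCAPH2 fell under VCR in PTPN21 cells (-0.76, adjusted p = 0.0246) and NCAPG2 was lower in PTPN21 cells without drug (-0.85, adjusted p = 0.0256). NCAPG2 was at 32.8, 21.9 and 29.6 FPKM in NC+DMSO and 12.1, 17.4 and 15.7 in PTPN21+DMSO. The other values of these 3 genes between groups ranged from -0.46 to 0.41 and did not pass. Of the SMC5/6 complex, another SMC complex that acts in DNA repair, 6 of 7 genes were tested. NSMCE2 rose under VCR in vector cells (0.82, adjusted p = 0.00201), SMC6 was lower in PTPN21 cells without drug (-0.82, adjusted p = 0.0421), and no other call was made.

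Of the anaphase promoting complex, the ligase that tags securin, 17 of 18 genes were tested. CDC20, its mitotic activator, rose under VCR in vector cells (0.91, limma adjusted p = 0.00028) and in PTPN21 cells (1.03, adjusted p = 0.000141), as did UBE2S, the enzyme that extends ubiquitin chains (1.77 and 0.57). CDC20 was at 22.5, 22.6 and 23.6 FPKM in NC+DMSO, 24.4, 24.7 and 23.05 in PTPN21+DMSO, 48.0, 36.7 and 47.6 in NC+VCR, and 49.0, 49.5 and 51.6 in PTPN21+VCR. It was thus higher in every VCR library than in any DMSO library. In the complex as a whole 2 rose and 6 fell in vector cells, and 3 rose and 4 fell in PTPN21 cells, with ANAPC13 (-1.28 and -0.92) and ANAPC2 (-1.11 and -1.54) falling most in both. The falls are near the 28.3% and 19.3% of all genes called lower, and 7.91% and 9.22% of all genes were called higher. The list medians were -0.32 and -0.23 beside -0.36 and -0.17 over all genes. Without drug UBE2S (1.26) and ANAPC10 (0.55) were higher in PTPN21 cells, where 2.65% of all genes were called higher. FZR1, the activator used after mitosis, passed in no comparison.

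By the root mean square difference of centred log2 profiles over the 12 libraries, the 3 genes closest to RAD21 among 11581 others were ZBTB11 (0.16), IPO7 (0.17) and YWHAZ (0.18). IPO7, an import receptor, was lowest in PTPN21+DMSO (19.4 to 27.2 FPKM) and at 44.1 to 58.8 FPKM in NC+VCR.

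Several members share exons with a gene on the opposite strand in GENCODE 29, and whether counting used strand was not given in the sources used here, so reads in the shared part cannot be told apart. NCAPD2 shares 486 bases with MRPL51, which at a mean of 101 FPKM was above NCAPD2 itself. RAD21 shares 518 bases with UTP23 (mean 18.6 FPKM), SMC4 shares 1561 with TRIM59 (3.80 FPKM) and 607 with IFT80 (5.46 FPKM), and NCAPG shares 1631 with LCORL (2.08 FPKM). Copies of PTTG1 and SMC3 were low, with means of 0.366 FPKM for PTTG3P, 0.00515 for PTTG2 and 1.08 for SMC3P1.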

How the data were processed

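RNA of 12 libraries was sequenced by an external company. The authors deposited 1 table of FPKM per gene and library, with human Ensembl identifiers (96.3% of them in GENCODE 29). The submitters' notes name fastp, Bowtie2 and the mouse build mm10, which goes against those identifiers, and the counting tool was not given in the sources used here. FPKM are no counts, so no count test was run. Genes averaging an FPKM of 1 or more were kept, log2(FPKM + 1) was fitted with limma 3.58.1 (R 4.3.3, intensity trend, 4 group means, no block), and p-values were adjusted over 11591 genes by Benjamini-Hochberg, with a threshold of 0.05. With 3 libraries a group an exact permutation test cannot go below 0.1. On simulated data for NC+VCR against NC+DMSO with 200 changed genes among 11591, the fit recovered 43% of genes changed by 1 and 89.5% of those changed by 2 on the log2 scale. Of the calls made there, 6.52% and 4.79% were false. The data had 4192 genes called in this comparison, far more than were changed in the simulation, so its recovery is not that of the comparison. The simulation also drew independent values with the same spread in every group, so its share of false calls need not hold for the data. No pair of libraries was identical.

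The members and lists were chosen with earlier results of these data known. Named were the 10 members, of each list at most the 2 largest rises and 2 largest falls past the threshold per comparison, 8 fixed genes (CDC20, FZR1, CDCA5, WAPL, SGO1, NCAPG2, NCAPD3, NCAPH2), and the 3 genes closest in profile to the 2 most variable members. Those for PTTG1 are not reported here. HBG2 and GATA1 were chosen after their values were seen. Promoters are from RefSeq (GRCh38.p14). Alternatives covered the pseudocount, filter, scaling, trend, groups fitted, replicate block and each library left out, and length and GC trends were added after seeing the data. The depth estimate is the fragment total at which the most low values of single-exon genes came within 0.1 of a whole fragment. This held for 40.7% to 53.8% of them, against 20% if evenly spread, so the depth is uncertain.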

Additional observations from a re-analysis of the deposited data

How the results depend on the processing

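PTTG1 in both VCR comparisons and NCAPH in vector cells kept their direction and call under all 21 settings tried, RAD21 in PTPN21 cells and SMC2 in vector cells in 18 of 21 each, and NCAPG in vector cells in 9 of 21. The 4 members called in NC+VCR against NC+DMSO became 3 with TPM scaling, quantile normalization, no intensity trend, only the groups compared, the replicate block, and length and GC trends removed. NCAPG was the call lost with the block (0.34, limma adjusted p = 0.0558). The 3 members called in PTPN21+DMSO against NC+DMSO became 0 with no filter on low values, 0 with only the groups compared and 0 with the replicate number as a block, 1 with quantile normalization, 1 without the intensity trend, 2 with median ratio scaling, 5 with TPM scaling and 6 with a minimum mean FPKM of 5. The 2 of PTPN21+VCR against PTPN21+DMSO became 1 with no filter and 4 with only the groups compared. The 0 of PTPN21+VCR against NC+VCR became 1 (NCAPD2) with that minimum, with TPM scaling and with only the groups compared. Leaving out 1 library gave 3 to 7, 1 to 3, 0 to 7, 0 to 2 and 0 called members in the 5 comparisons. Libraries of the same number in different groups showed little shared deviation from their group means (18 pairs, correlations of -0.15 to 0.06). Whether they were handled together cannot be told from this. The replicate block gave 3, 2, 0, 0 and 0 calls. With the block and length and GC trends removed, PTPN21+DMSO against NC+DMSO had 0.

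Signs turned only for values that were not called. In NC+VCR against NC+DMSO, SMC4 (-0.015) and NCAPD2 (-0.0899) turned with TPM scaling, SMC3 (0.0642) with median ratio scaling, and ESPL1 (0.0467) with length and GC trends removed. In PTPN21+VCR against PTPN21+DMSO, SMC3 (0.0474) and NCAPH (0.0221) turned with median ratio scaling, SMC3 (0.0227) with quantile normalization and SMC4 (-0.0489) with length and GC trends removed. In PTPN21+VCR against NC+VCR, SMC1A turned with TPM scaling (-0.0499), median ratio scaling (-0.0024) and length and GC trends removed (-0.0012). In the interaction, SMC4 turned with TPM scaling (0.0605) and quantile normalization (0.0029), SMC3 with median ratio scaling (-0.0167) and, with length and GC trends removed, SMC3 (-0.1764) and SMC2 (-0.0053). The values without those trends were the same with the replicate block. With 1 library left out, the ranges that crossed 0 were -0.11 to 0.39 for SMC4 and -0.18 to 0.35 for NCAPD2 in NC+VCR against NC+DMSO, -0.0384 to 0.2477 for ESPL1 in PTPN21 cells, -0.12 to 0.13 for SMC1A and -0.0031 to 0.16 for NCAPH in PTPN21+VCR against NC+VCR, and -0.32 to 0.18 for SMC4 in the interaction. The cause was not tested. ESPL1 has no value with that minimum, and the interaction was not refitted on fewer groups.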

Other observations

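Cell cycle genes around the members were counted from 2 further lists, and whether their calls held under other settings was not tested. Of 18 genes of the G1/S phases, 14 fell and none rose under VCR in vector cells (list median -0.75), and 12 fell and none rose in PTPN21 cells (-0.58). The medians of all genes were -0.36 and -0.17, with 28.3% and 19.3% of all genes called lower and 7.91% and 9.22% called higher. GINS2, a part of the replicative helicase, fell by 1.58 and 1.36 on the log2 scale, and UNG, a uracil glycosylase, fell by 2.06 and 1.49. Without drug CCNE2, a G1/S cyclin (-1.09, limma adjusted p = 0.0410), and MCM2 (-0.68, adjusted p = 0.0472) were lower in PTPN21 cells, and under VCR MCM4 was (-0.92, adjusted p = 0.0447).

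Of 19 genes of the G2/M phases, 6 rose and 5 fell under VCR in vector cells, where 7.91% of all genes were called higher and 28.3% lower, and the list median was 0.09 beside -0.36 over all genes. Among the genes called, PLK1 (1.23) and CCNB1 (1.21) rose most, and BUB1 (-0.48) and CDK1 (-0.43), which fell most, lay close to the median of all genes. MKI67 had a lower value that did not pass (-0.95, limma adjusted p = 0.182). In PTPN21 cells 8 rose and 1 fell (9.22% and 19.3% of all genes, list median 0.15 beside -0.17), led by HMMR (1.52) and AURKA (1.51), while TOP2A, which works beside condensin on mitotic chromosomes, fell by 0.65. Without drug 4 were lower and none higher in PTPN21 cells (3.69% and 2.65% of all genes), among them BUB1B (-1.04) and AURKA (-1.03). Under VCR TOP2A alone of this list was called between PTPN21 and vector cells (-0.46, limma adjusted p = 0.0495).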
